A study of Mus musculus with 7 samples.

Results

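The imprinted growth genes of fetal liver described here are 10 genes chosen by name, Igf2, H19, Igf2r, Grb10, Dlk1, Meg3, Cdkn1c, Peg3, Mest and Plagl1, out of 39017 genes counted in mouse fetal liver at E12.5, the stage at which the liver is the main site of blood formation. All 10 were found by symbol and all 10 passed the filter on low counts that left 15800 genes for testing. Their RNA was compared in 7 livers, 1 library each, by Taf10 genotype and by a code in the form of a date in the sample titles. The 2 TAF10KO livers carried EpoCre and floxed Taf10 (lox on both alleles in the titles, lox over a knockout allele in the series text). EpoCre expresses Cre from the locus of the erythropoietin receptor and is thus aimed at erythroid cells. The 3 TAF10HET livers also carried EpoCre, with alleles lox/wt in replicate 1 and wt/ko in replicates 2 and 3. The 2 WT livers were lox/lox without Cre, so TAF10KO and WT differ in the Cre as well as in the deletion. All embryos were labelled C57BL/6, and total RNA came from a cell suspension of each liver, so that all its cell types contribute. Nothing in the labels says that the livers came from different litters or mothers. TAF10KO replicate 1, TAF10HET replicate 1 and WT replicate 1 carry the first date code, and TAF10KO replicate 2, TAF10HET replicates 2 and 3 and WT replicate 2 the second. The labels do not say what the code marks.

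Imprinted genes are transcribed mainly from the allele inherited from 1 parent, under the control of DNA methylation set in the germ line. Many of them act on fetal growth: genes expressed from the paternal allele, such as Igf2, tend to promote it, and genes expressed from the maternal allele, such as Igf2r, Grb10 and Cdkn1c, tend to restrain it. In fetal liver several are abundant in hepatoblasts and in mesenchymal cells, and a number of them are known to decline together as organs mature after birth. The counts do not separate the parental alleles, so none of the values below says from which allele the RNA came.

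The members lie at 8 imprinted loci. Positions are from GENCODE M21 on the mm10 build. H19 (ENSMUSG00000000031, chromosome 7, 142575529 to 142578143, a noncoding RNA gene of 3 exon blocks) lies 72.6 kb from Igf2 (ENSMUSG00000048583, chromosome 7, 142650766 to 142666816), and Cdkn1c (ENSMUSG00000037664, chromosome 7, 143458339 to 143461050) lies a further 791.5 kb away. Dlk1 (ENSMUSG00000040856, chromosome 12, 109452823 to 109463336) and Meg3 (ENSMUSG00000021268, chromosome 12, 109541001 to 109571726) are 77.7 kb apart. The others stand at loci of their own: Peg3 (ENSMUSG00000002265, chromosome 7, 6703892 to 6730431), Mest (ENSMUSG00000051855, chromosome 6, 30723547 to 30748465), Plagl1 (ENSMUSG00000019817, chromosome 10, 13060504 to 13131694), Grb10 (ENSMUSG00000020176, chromosome 11, 11930508 to 12038683) and Igf2r (ENSMUSG00000023830, chromosome 17, 12682406 to 12769664). Taf10 itself is on chromosome 7, 36.8 Mb from H19.

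The 250 bases before the transcription start of Plagl1, Peg3, Dlk1 and Igf2r are shown because these are the 4 members with a single start in the RefSeq promoter table (build GRCm38.p6), and because they include the widest (Plagl1) and some of the narrowest (Dlk1, Igf2r) of the differences described below. They run 5′ to 3′ on the strand of the gene, at chr10:13090582-13090831 (plus strand) for Plagl1, chr7:6730420-6730669 (minus strand) for Peg3, chr12:109452573-109452822 (plus strand) for Dlk1 and chr17:12769707-12769956 (minus strand) for Igf2r. Capitals mark matches on either strand to the TATA box (TATAAA), the CCAAT box (CCAAT) and the GC box (GGGCGG).
Plagl1: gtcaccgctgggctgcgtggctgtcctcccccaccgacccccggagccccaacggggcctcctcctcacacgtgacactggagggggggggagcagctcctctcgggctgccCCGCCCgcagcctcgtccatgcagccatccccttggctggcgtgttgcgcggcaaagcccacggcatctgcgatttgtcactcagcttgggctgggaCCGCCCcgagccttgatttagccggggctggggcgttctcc
Peg3: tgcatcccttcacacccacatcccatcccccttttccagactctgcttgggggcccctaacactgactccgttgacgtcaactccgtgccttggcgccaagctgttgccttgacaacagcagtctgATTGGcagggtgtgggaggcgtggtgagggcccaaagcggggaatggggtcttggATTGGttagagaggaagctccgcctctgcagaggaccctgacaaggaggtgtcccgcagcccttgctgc
Dlk1: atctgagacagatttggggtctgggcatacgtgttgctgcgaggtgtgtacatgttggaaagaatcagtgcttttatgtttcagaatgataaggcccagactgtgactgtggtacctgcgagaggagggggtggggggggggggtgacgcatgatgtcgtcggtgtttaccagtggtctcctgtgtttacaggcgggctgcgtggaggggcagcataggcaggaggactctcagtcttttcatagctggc
Igf2r: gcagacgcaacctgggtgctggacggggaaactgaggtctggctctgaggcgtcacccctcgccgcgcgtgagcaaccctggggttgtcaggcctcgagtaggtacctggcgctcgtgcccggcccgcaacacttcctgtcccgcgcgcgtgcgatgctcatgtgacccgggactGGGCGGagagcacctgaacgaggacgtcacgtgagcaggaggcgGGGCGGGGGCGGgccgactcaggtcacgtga
The Plagl1 stretch held 19 CpG dinucleotides and 2 GC boxes, the Peg3 stretch 8 CpG and 2 CCAAT boxes, the Dlk1 stretch 8 CpG and no match, and the Igf2r stretch 27 CpG and 3 GC boxes, the last of which adjoin each other. None of these 4 held a TATAAA match. Over all 32851 RefSeq promoter stretches of this length the median was 6 CpG, and 12.4% held a TATA box, 33.9% a CCAAT box and 32.7% a GC box. In the table, 8 of the 10 members had 15 starts in all, of which 1 had a TATA box (a Meg3 start), 3 a CCAAT box and 8 a GC box. H19 and Cdkn1c had no entry. A match to these letters is a description of the sequence only.

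Per length of exon, H19 was the most abundant member, at 887 ± 247 RPKM (CPM per kilobase of exon, CPM being the usual counts scaled to a common library total; SD, n = 7 libraries), and Igf2 followed at 286 ± 72.5 RPKM. H19 ranked 45th and Igf2 152nd among the genes tested on that scale, and H19 stood above Igf2 in 7 of 7 libraries. Dlk1 averaged 138 RPKM, Cdkn1c 109.9, Grb10 78.8, Mest 46.1, Plagl1 33.5, Igf2r 30.9, Peg3 28.7 and Meg3 25.6 RPKM. Igf2 and Dlk1, Grb10 and Mest, and Mest and Plagl1 kept their order in 7 of 7 libraries. Dlk1 and Cdkn1c, and Cdkn1c and Grb10, did so in 5 of 7. From Plagl1 down the order changed between libraries, and these 4 genes were not separated. The lengths take every annotated exon, which are 18089 bases for Meg3, so the scale understates a gene whose short transcripts predominate. Together the 10 members took 0.481% to 1.05% of the counts assigned to genes.

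The libraries held between 18008391 and 43401474 reads in genes. Taf10 stood at 37.8 and 43.9 CPM (scaled by library total and TMM factor) in TAF10KO livers, against 63.0 to 78.1 in TAF10HET and 71.97 and 96.5 CPM in WT livers (log2 -1.04 for TAF10KO against WT, adjusted p = 0.0542 by edgeR). Which exons the deletion removes, and in what share of the cells, was not tested. Xist, at under 10 CPM in TAF10KO replicate 2 and TAF10HET replicate 1, marked these 2 embryos as male and the other 5 as female. TAF10HET replicate 1 stood apart in a gene of heart and other muscle, Actc1, at 49.1 CPM against 1.79 to 3.11 CPM in the other libraries, and it had the highest summed level of mesenchymal markers. Member calls gained without it are named below.

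Each of the 10 genes stood at lower CPM, which is relative to the library total, in the livers of the second date code than in those of the first. With date code and genotype as terms (edgeR quasi-likelihood test, Benjamini-Hochberg adjusted over 15800 genes), 10 of 10 members fell, where 22.7% of all genes tested fell and 18.7% rose (41.4% in either direction). The p-values of the date term rest on the spread between livers within the codes. They do not cover spread between sets of livers, since each code is a single set. In 10 of 10 members no library of the second date code reached the lowest library of the first, which held for 23.6% of the genes tested. The median log2 difference of the members was -0.77, beside 0.02 over all genes. The members fell by unequal amounts: Plagl1, Mest, Peg3 and Cdkn1c had log2 differences of -2.43 to -1.41, and Meg3, H19, Igf2, Igf2r, Dlk1 and Grb10 of -0.81 to -0.52. Below -1 with a call stood 4 of 10 members and 11.4% of all genes.

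**Figure D1:**
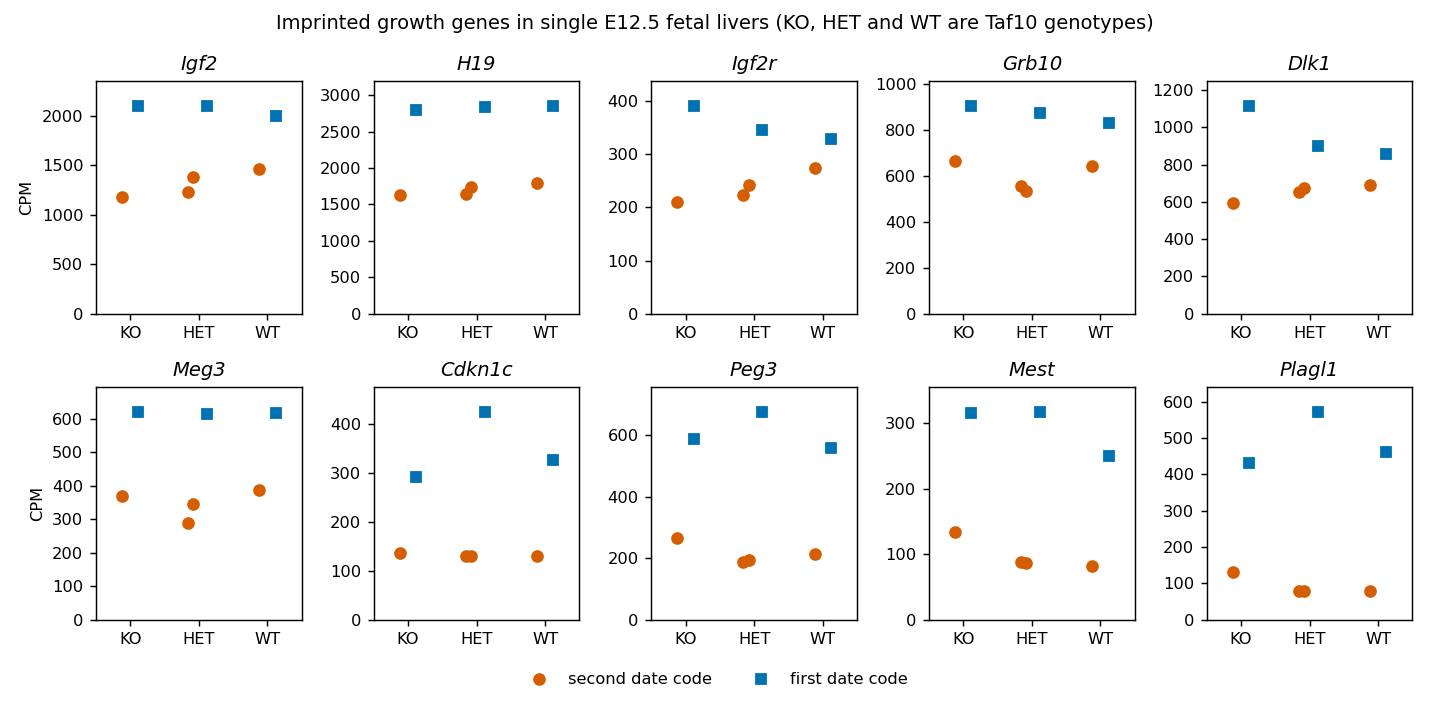
CPM of each gene (y axis, from 0) in the 7 livers, by Taf10 genotype (x axis) and date code (circles, second; squares, first); each point is 1 library. All 4 circles lie below all 3 squares in every panel, and for Plagl1 and Mest the TAF10KO circle stands above the other circles.

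Plagl1, a zinc finger transcription factor known in the mouse to act on other imprinted genes, showed the widest difference. It stood at 132 CPM in the TAF10KO, 79.2 and 77.9 in the TAF10HET and 78.2 CPM in the WT livers of the second date code, against 432 in the TAF10KO, 571 in the TAF10HET and 461 CPM in the WT liver of the first. The lowest value of the first code was 3.26 times the highest of the second. The log2 difference was -2.43 (SE 0.204, adjusted p = 0.000491), so that the second date code held 18.5% of the level of the first. Only 2.30% of the genes tested had a date difference as low.

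Mest, a protein with a hydrolase fold that is long used as a marker of fetal mesoderm, stood at 134 CPM in the TAF10KO, 87.6 and 86.3 in the TAF10HET and 81.6 CPM in the WT livers of the second code. On the first it stood at 316 CPM in the TAF10KO, 317 in the TAF10HET and 250.2 in the WT liver. The groups did not overlap, with a log2 difference of -1.61 (SE 0.11, adjusted p = 0.0002). The Mest exons share 912 bases with Copg2, which lies on the opposite strand, so reads there cannot be assigned without strand; Copg2 stood at -0.06 (adjusted p = 0.419) between the date codes.

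Peg3, a zinc finger protein that affects fetal growth and maternal care in mice, stood at 264 CPM in the TAF10KO, 189 and 193 in the TAF10HET and 214 CPM in the WT livers of the second code, against 586 in the TAF10KO, 674 in the TAF10HET and 556 CPM in the WT liver of the first. The log2 difference was -1.49 (SE 0.121, adjusted p = 0.000278). Cdkn1c encodes p57KIP2, an inhibitor of cyclin-dependent kinases. It stood at 137 CPM in the TAF10KO, 129.9 and 129.6 in the TAF10HET and 131 CPM in the WT livers of the second code, against 291 in the TAF10KO, 424 in the TAF10HET and 326 CPM in the WT liver of the first. The livers of the second code were close to each other (132 ± 3.19 CPM, SD, n = 4), whereas those of the first spread more widely (347 ± 69.1, n = 3). The log2 difference was -1.41 (SE 0.111, adjusted p = 0.000259).

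The IGF2 ligand and its neighbour fell by smaller amounts. Igf2 encodes the secreted growth factor that drives fetal growth through the IGF1 receptor. It stood at 1175 CPM in the TAF10KO, 1231 and 1382 in the TAF10HET and 1469 CPM in the WT livers of the second date code, against 2102 in the TAF10KO, 2099 in the TAF10HET and 2000 CPM in the WT liver of the first. The log2 difference was -0.66 (SE 0.0961, adjusted p = 0.00201). H19 is a noncoding RNA that shares enhancers with Igf2, is transcribed from the other parental allele and holds the precursor of miR-675. It stood at 1629 CPM in the TAF10KO, 1637 and 1735 in the TAF10HET and 1797 CPM in the WT livers of the second code, against 2793 in the TAF10KO, 2839 in the TAF10HET and 2851 CPM in the WT liver of the first, with a log2 difference of -0.73 (SE 0.0756, adjusted p = 0.00052). The H19 values averaged 1699 ± 81.0 CPM on the second code and 2828 ± 30.5 CPM on the first (SD, n = 4 and n = 3), so the gap was far wider than either spread.

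Because both genes moved alike, the ratio of H19 counts to Igf2 counts within a library was close to constant. It was 1.39 in the TAF10KO, 1.33 and 1.26 in the TAF10HET and 1.22 in the WT livers of the second date code, against 1.33 in the TAF10KO, 1.35 in the TAF10HET and 1.43 in the WT liver of the first. Over the 7 libraries its coefficient of variation was 5.30%, and the date codes overlapped. That coefficient was 5.46% for the ratio of Igf2 to Igf2r, genes on different chromosomes, where the codes also overlapped. For Meg3 to Dlk1, genes of the same locus, it was 16.5%. A steady ratio was thus not particular to genes of the same locus. The ratio of Plagl1 to Igf2 counts was 0.0532 to 0.113 in the livers of the second code and 0.205 to 0.272 in those of the first, with no overlap. These ratios do not depend on the library totals. The annotated exons of Igf2 share 3596 bases with Gm49394, a gene model not used here, and 98 bases with the antisense Igf2os.

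Igf2r, the receptor that binds IGF2 and delivers it to lysosomes, stood at 210.1 CPM in the TAF10KO, 224 and 241 in the TAF10HET and 274 CPM in the WT livers of the second code, against 391 in the TAF10KO, 345 in the TAF10HET and 328 CPM in the WT liver of the first. The log2 difference was -0.57 (SE 0.11, adjusted p = 0.00605). Grb10, an adaptor that binds the insulin and IGF1 receptors and dampens their signal, stood at 667 CPM in the TAF10KO, 557 and 534 in the TAF10HET and 642 CPM in the WT livers of the second code, against 905 in the TAF10KO, 876 in the TAF10HET and 830.0 CPM in the WT liver of the first (-0.52, SE 0.0837, adjusted p = 0.00304). Grb10 thus showed the smallest date difference of the 10, with the groups still apart.

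Dlk1, a transmembrane protein with EGF repeats that marks hepatoblasts, stood at 592 CPM in the TAF10KO, 653 and 672 in the TAF10HET and 689 CPM in the WT livers of the second code, against 1114 in the TAF10KO, 899.6 in the TAF10HET and 856 CPM in the WT liver of the first (-0.54, SE 0.113, adjusted p = 0.00831). Meg3, the maternally expressed noncoding RNA of the same locus, stood at 369 CPM in the TAF10KO, 289.5 and 345 in the TAF10HET and 386 CPM in the WT livers of the second code, against 619.7 in the TAF10KO, 614 in the TAF10HET and 618 CPM in the WT liver of the first (-0.81, SE 0.0908, adjusted p = 0.000697). The livers of the first code were nearly level in Meg3 (617 ± 3.23 CPM, SD, n = 3) and spread in Dlk1, where TAF10KO was the highest. The ratio of Meg3 to Dlk1 counts was 0.444 to 0.623 in the livers of the second code and 0.556 to 0.722 in those of the first, and the codes overlapped.

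The direction was the same for genes of either parental allele. Of the members that are known to be expressed mainly from the maternal allele (H19, Igf2r, Grb10, Meg3 and Cdkn1c), 5 of 5 fell, with a median of -0.73 and a range of -1.41 to -0.52. Of those expressed from the paternal allele (Igf2, Dlk1, Peg3, Mest and Plagl1), 5 of 5 fell, with a median of -1.49 and a range of -2.43 to -0.54. The difference between these sets was not tested.

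As no library of the second code reached the lowest of the first, the date difference was necessarily negative for 10 of 10 members within each genotype. Its sign there is not a separate observation, and only its size is described. The date difference is that of log2 CPM. The difference ranged from -1.71 to -0.44 between the TAF10KO livers, from -2.86 to -0.44 between the TAF10HET livers and from -2.56 to -0.26 between the WT livers (log2 CPM, differences of library values with no test). Within TAF10HET the date codes also differ in the Taf10 alleles, which cannot be told apart from the code there. In TAF10KO and WT the alleles in the titles do not differ between the codes. For TAF10KO the series text gives lox over a knockout allele instead, so this is not settled there.

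**Figure D2:**
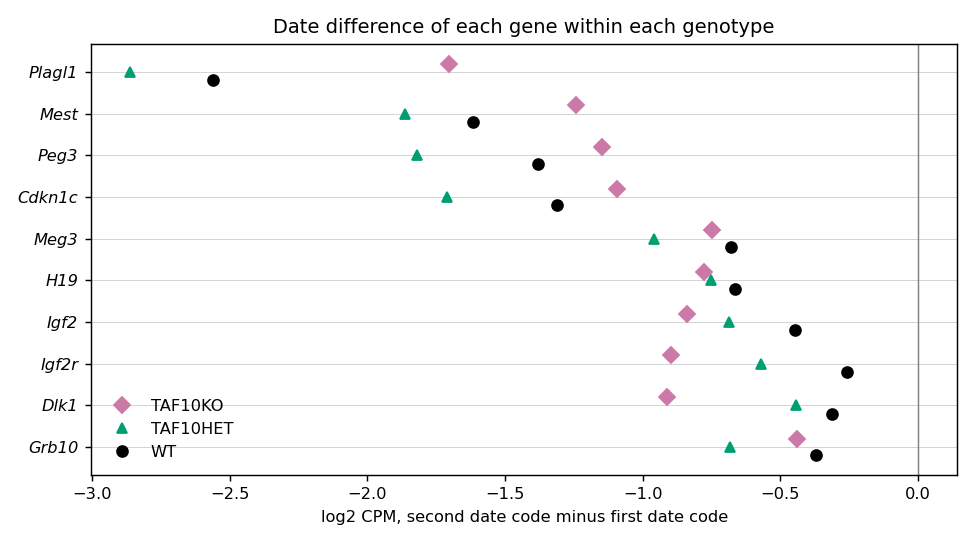
Difference in log2 CPM between the second and the first date code (x axis) for each gene (y axis), in TAF10KO (diamonds), TAF10HET (triangles, the mean of replicates 2 and 3 minus replicate 1) and WT livers (circles). All points lie left of 0, which follows from the lack of overlap between the date codes. Within each genotype the point of Plagl1 lies farthest from 0, at -1.71 in TAF10KO, -2.86 in TAF10HET and -2.56 in WT.

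An edgeR fit with a further term, added after the data were seen, tested whether the date difference of TAF10KO was unlike that of the other livers. It called 1 of 10 members, Plagl1, whose fall was smaller in TAF10KO by 1.03 on the log2 scale (SE 0.14, adjusted p = 0.028), and it called 0.728% of all genes. This rests on 1 TAF10KO liver per date code. With embryo sex as a term it was 0.55 and missed the threshold. In this fit the sex term was set by TAF10HET replicate 1 alone, the only male outside TAF10KO. Sex can thus not be told apart there from other traits of that liver. The Plagl1 difference also missed the threshold without TAF10HET replicate 2 (1.01, adjusted p = 0.0559) or TAF10HET replicate 3 (0.9996, adjusted p = 0.175). Mest stood at 0.52 (adjusted p = 0.0898), Peg3 at 0.48 (0.195) and Cdkn1c at 0.45 (0.187), and Dlk1 and Igf2r stood on the other side, at -0.53 (0.0868) and -0.46 (0.149).

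Between genotypes no member was called. For TAF10KO against WT 0 of 10 members had an adjusted p under 0.05, where 0.608% of all genes did. At an unadjusted p under 0.05 there was 1, Mest, and DESeq2 called that gene alone among the members. For TAF10KO against TAF10HET 0 of 10 were called (background 1.61%), with 1 at an unadjusted p under 0.05, again Mest, and 0 called by DESeq2. For TAF10HET against WT 0 of 10 were called (background 0.00633%), with 0 at an unadjusted p under 0.05 and 0 called by DESeq2. With genotype as the only term all 3 comparisons called 0 of all genes. These comparisons share libraries. Taken by direction, 0.481% of all genes were called higher and 0.127% lower in TAF10KO against WT, and 1.15% and 0.456% against TAF10HET.

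**Figure D3:**
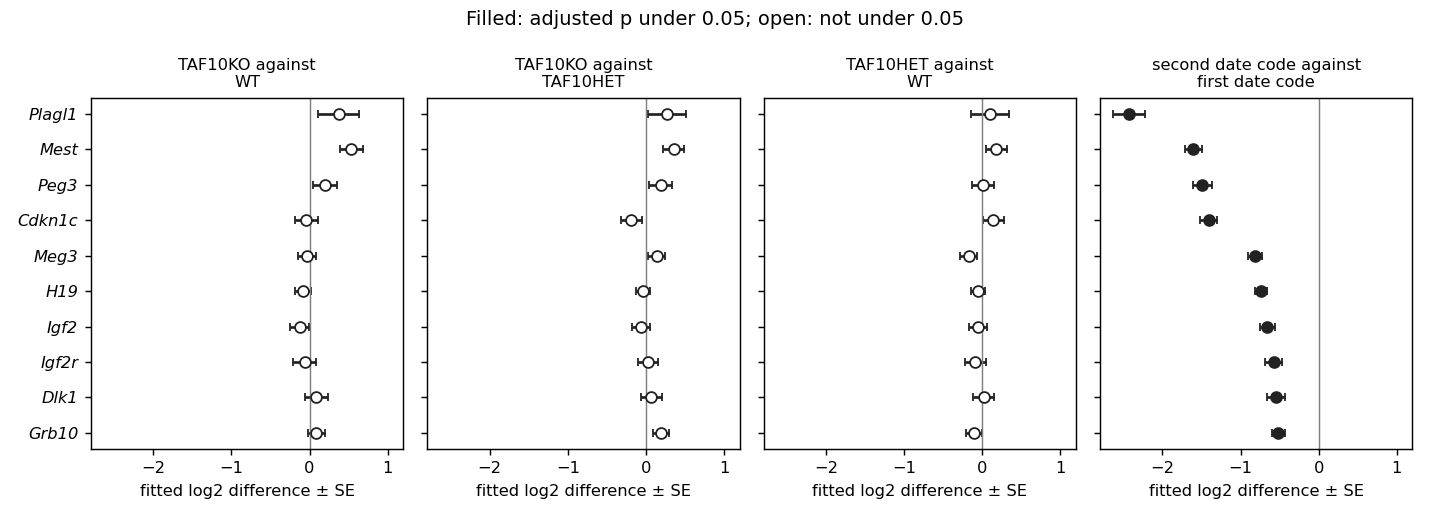
Fitted log2 difference of each gene (x axis, bars ± SE) in the 3 genotype comparisons and between the date codes; filled points have an adjusted p under 0.05. Every point of the date comparison is filled and left of 0, from -2.43 to -0.52, and every point of the genotype comparisons is open.

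Of the genotype differences, that of Mest was the largest in size. Within the date codes the TAF10KO liver stood above WT by 0.71 on the second and 0.34 on the first. Fitted over both codes, Mest stood higher in TAF10KO than in WT by 0.53 (SE 0.144, adjusted p = 0.138) and than in TAF10HET by 0.35 (SE 0.131, adjusted p = 0.232). On the second code the TAF10KO liver (134 CPM) was above the TAF10HET livers (87.6 and 86.3), and on the first they were level (316 CPM in TAF10KO and 317 in TAF10HET). The difference from WT passed the threshold with DESeq2 (0.53, adjusted p = 0.0355) and with embryo sex as a term (0.37, adjusted p = 0.00207). It passed with no filter on low counts (0.58, adjusted p = 2.51e-06), without TAF10HET replicate 1 (0.52, adjusted p = 0.0211) and, at 0.79 (adjusted p = 0.00327), without TAF10KO replicate 1. Without TAF10KO replicate 2 it was 0.23 (adjusted p = 0.224). The difference from TAF10HET passed with embryo sex as a term (0.30, adjusted p = 0.00186) and with no filter (0.39, adjusted p = 0.000941). It also passed without TAF10HET replicate 1 (0.53, adjusted p = 0.0322) and, at 0.59 (adjusted p = 0.00717), without the first TAF10KO liver, and it was 0.029 without TAF10KO replicate 2.

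For the other members the difference of TAF10KO from WT lay between -0.13 and 0.37. The values were -0.13 for Igf2 (SE 0.125, adjusted p = 0.633), -0.09 for H19 (SE 0.0983, adjusted p = 0.684), -0.06 for Igf2r (SE 0.143, adjusted p = 0.851) and 0.09 for Grb10 (SE 0.109, adjusted p = 0.709). Those of Dlk1 (0.09), Meg3 (-0.03) and Cdkn1c (-0.04) were as close to 0, but Cdkn1c was lower with embryo sex as a term, at -0.21 (adjusted p = 0.0322), and then passed the threshold. Peg3 stood at 0.20 (SE 0.158, adjusted p = 0.545) and Plagl1 at 0.37 (SE 0.264, adjusted p = 0.503). Plagl1 passed the threshold with no filter on low counts (0.41, adjusted p = 0.00483). It differed between the codes, at 0.76 on the second and -0.10 on the first; without TAF10KO replicate 2 its fitted value was -0.22, and without TAF10KO replicate 1 it was 0.85 (adjusted p = 0.00327). The receptor Igf2r and Dlk1 had the opposite pattern, at -0.39 and -0.22 on the second code and 0.25 and 0.38 on the first. The TAF10KO liver stood above all others of its date code on both codes for 1 of 10 members, Grb10, as for 17.6% of all genes.

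The difference of TAF10KO from TAF10HET ranged from -0.19 (Cdkn1c) to 0.35 (Mest), with 7 of 10 members higher. Besides Mest, 3 members passed the threshold there under some setting. Cdkn1c did so with embryo sex as a term (-0.23, adjusted p = 0.00878) and Peg3 without TAF10HET replicate 1 (0.41, adjusted p = 0.0476). Plagl1 did so with no filter (0.31, adjusted p = 0.0294) and, at 0.71 (adjusted p = 0.00442), without the first TAF10KO liver. That of TAF10HET from WT ranged from -0.17 (Meg3) to 0.18 (Mest), with 5 higher and 5 lower. Across the genotypes the members' median was 0.03 for TAF10KO against WT, 0.10 for TAF10KO against TAF10HET and -0.02 for TAF10HET against WT, beside 0.03, 0.003 and 0.009 over all genes.

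Markers of liver cells other than erythroid ones moved with the date code, in the same direction as the members. In whole liver RNA, fewer cells of a type, less RNA per cell and a larger share of RNA from other cells cannot be told apart. The 12 stellate and mesenchymal markers summed to 380 to 512 CPM in the livers of the second code and 1750 to 2911 CPM in those of the first. All 12 fell, with a median log2 difference of -2.48, and among them Col1a1, a collagen of fibroblasts, fell by 3.23. The 8 endothelial markers summed to 169 to 216 CPM on the second code and 324 to 471 on the first, and 8 of 8 fell (median -0.98). The 10 hepatoblast and hepatocyte markers summed to 12879 to 17010 CPM on the second code and 18130 to 20776 on the first. Of these 8 fell, with a median of -0.45, and Alb, serum albumin, fell by 0.55.

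Of the 6 mesothelial markers tested 5 fell (median -1.95), and of the 7 macrophage markers 6 fell (median -0.66). The 7 erythroid markers all rose, with a median of 0.52, to a sum of 7118 to 11678 CPM on the second code, against 6128 to 7227 CPM on the first; the TAF10KO liver of the second code lay below the WT liver of the first, so the sums overlapped. No marker of these lists was at 0 in all libraries. Of the 3 cardiac markers tested 2 fell, Tnnt2 (-3.14) and Myl7 (-1.665). Their median of -1.93 was the value of Actc1 (adjusted p = 0.275 by edgeR), which was high in TAF10HET replicate 1 alone. Tnnt2 was also highest in that liver, at 8.43 CPM, against 1.55 in the TAF10KO and 1.17 CPM in the WT liver of the first code. Within the second code the TAF10KO liver, which had the most Plagl1 and Mest, also had the highest mesenchymal sum (512 CPM, against 380 and 410 in TAF10HET and 409.6 in WT) and the lowest erythroid sum (7118 CPM, against 10044 to 11678 in TAF10HET and 9998 in WT). Between TAF10KO and WT the mesenchymal median was 0.55 (0 of 12 called by edgeR, 1 at an unadjusted p under 0.05, 0 by DESeq2). The endothelial median was 0.49, with 7 of 8 markers higher and 1, Lyve1, lower. Of the 8, edgeR called Flt1 and Pecam1 higher, where it called 0.481% of all genes higher (6 at an unadjusted p under 0.05, 3 called by DESeq2). The macrophage median was -0.43, with 7 of 7 lower (0 called by edgeR, 5 at an unadjusted p under 0.05, 1 by DESeq2). The hepatoblast and hepatocyte median was -0.25, with 8 of 10 lower (0 called by edgeR, 4 at an unadjusted p under 0.05, 2 by DESeq2). The mesothelial median was 0.29, with 6 of 6 higher (0 called by edgeR, 1 at an unadjusted p under 0.05, 1 by DESeq2). The erythroid median was -0.34 (0 of 7 called by edgeR, 4 at an unadjusted p under 0.05, 3 by DESeq2). The part of cell make-up in the members' differences was not tested.

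**Figure D4:**
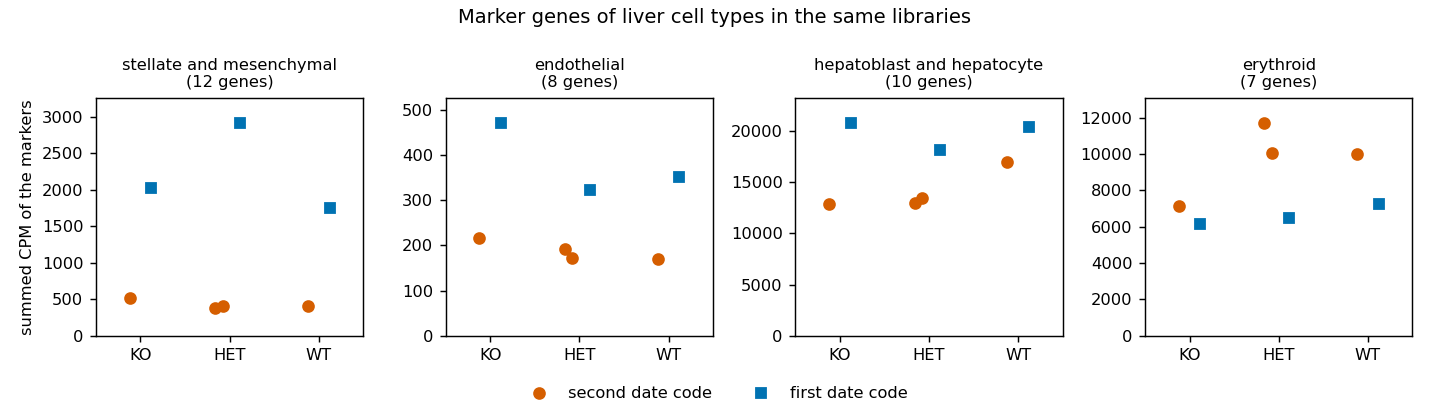
Summed CPM (y axis, from 0) of the listed marker genes of 4 liver cell types in the 7 livers, by genotype (x axis) and date code (circles, second; squares, first). Stellate and mesenchymal sums are 380 to 512 CPM on the second code and 1750 to 2911 on the first, whereas the erythroid sums are 7118 to 11678 on the second code and 6128 to 7227 on the first, with an overlap.

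Genes outside the list whose profiles over the 7 libraries came closest to those of the members with the widest range were found by the root-mean-square difference of centred log2 CPM, among 12115 genes. For Plagl1 they were Adam12 (0.0683), Plekhh2 (0.102) and Hand2 (0.114), where the median gene stood at 1.28. For Mest they were Aplnr (0.0415), Tns2 (0.0821) and Armcx4 (0.0826), and for Peg3 Copz2 (0.0639), Cxcl12 (0.0784) and Nynrin (0.0862). Hand2 is a transcription factor of fetal mesenchyme and heart, Aplnr the apelin receptor and Cxcl12 a chemokine made by stromal cells. Among the members, Mest and Peg3 were each other's nearest (0.145), and Mest was the nearest to Plagl1 (0.428). These likenesses carry no test, and all rest on the same 7 libraries and their date codes.

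Of other imprinted genes, a majority fell as well. Of 59 listed, 54 were found by symbol and 48 were tested. Between the date codes 29 of 48 fell and 5 rose, with a median of -0.59, beside the 22.7% of all genes that fell. Ndn, which encodes necdin, averaged 6.34 ± 0.914 CPM on the second code and 25.4 ± 6.80 CPM on the first (SD, n = 4 and n = 3). Peg10, a gene derived from a retrotransposon and needed in the placenta, averaged 159 ± 20.2 CPM on the second code and 322 ± 21.7 on the first. Cobl (-2.25), Osbpl5 (-2.17), Zdbf2 (-1.84) and Slc38a4 (-0.89) fell as well. The count of those that fell was 19 without WT replicate 1 or WT replicate 2. Between genotypes edgeR called 0 of 48 in each comparison, with 9 (TAF10KO against WT), 8 (TAF10KO against TAF10HET) and 3 (TAF10HET against WT) at an unadjusted p under 0.05. DESeq2 called 1, 1 and 0, the gene being Gatm both times. The most abundant, Rian, a noncoding RNA downstream of Meg3, stood at -0.24 for TAF10KO against WT (adjusted p = 0.401).

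Neighbours at the members' loci did not all follow them. Of 21 tested neighbours 13 fell and 2 rose, where 22.7% of all genes fell and 18.7% rose. All of these neighbours are among the other imprinted genes counted above, so they are not a separate observation. At the Dlk1 and Meg3 locus, Begain had the widest difference (-2.56, adjusted p = 0.000702), Rian fell by 0.82, Mirg by 0.66 and Rtl1 by 0.39, so that the noncoding RNAs of this locus fell by amounts close to that of Meg3 (0.81). Beside Igf2r, its antisense RNA Airn fell by 1.01 and Slc22a3, an organic cation transporter, rose by 0.46. Near Cdkn1c, Osbpl5 fell, Tssc4 rose by 0.31 and Nap1l4 stood at -0.04 (adjusted p = 0.659). Zim1, beside Peg3, fell by 2.10. Reads of Airn, which runs through Igf2r on the opposite strand, are uncertain where strand was not used in counting.

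In the list of IGF and insulin signalling, 2 of 30 genes rose and 11 fell between the date codes, where 18.7% of all genes rose and 22.7% fell. Igfbp3, a carrier that binds IGF in the circulation, stood at 30.7 CPM in the TAF10KO, 16.7 and 16.6 in the TAF10HET and 16.1 CPM in the WT livers of the second code, against 90.4 in the TAF10KO, 103 in the TAF10HET and 81.5 CPM in the WT liver of the first (log2 -2.22, adjusted p = 0.000463). Igfbp4 fell by 0.68, and Foxo3, a transcription factor that insulin signalling restrains, rose by 0.76. Between genotypes 2 of 30 were called for TAF10KO against WT and 3 of 30 for TAF10KO against TAF10HET, where 0.608% and 1.61% of all genes were. Igfbp1, a binding protein known to limit IGF action, stood at 147 and 152 CPM in TAF10KO livers, against 30.3 to 46.3 in TAF10HET and 31.7 and 38.8 CPM in WT livers. Stc2, which encodes stanniocalcin 2, an inhibitor of the protease that cleaves IGF binding proteins, stood at 15.7 and 33.1 CPM in TAF10KO livers, against 3.90 to 4.60 in TAF10HET and 3.10 and 4.55 CPM in WT livers. Both rose in TAF10KO against WT, by 2.10 (adjusted p = 0.00894) and 2.63 (adjusted p = 0.0204), and against TAF10HET, by 2.11 (adjusted p = 0.00387) and 2.51 (adjusted p = 0.00916). Against WT both missed the threshold with genotype only and without WT replicate 1 or WT replicate 2, and Stc2 also without TAF10HET replicate 3. Against TAF10HET both missed it with genotype only, and Stc2 also without WT replicate 1, WT replicate 2 or TAF10HET replicate 3. Pik3r1, a regulatory subunit of PI3 kinase, fell in TAF10KO against TAF10HET (-0.87, adjusted p = 0.0413). That call was lost with genotype only (adjusted p = 0.618) and without WT replicate 1 (0.121), WT replicate 2 (0.141), TAF10HET replicate 2 (0.0785), TAF10HET replicate 3 (0.125) or TAF10KO replicate 2 (0.0574). In TAF10HET against WT edgeR called 0 of 30, with 0 at an unadjusted p under 0.05, and DESeq2 0.

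Among genes that keep imprints, 7 of 17 tested rose and 4 fell between the date codes, where 18.7% of all genes rose and 22.7% fell, so the share that fell was near that of all genes. Zfp57, a zinc finger protein that guards methylation at imprinted loci, averaged 5.06 ± 1.24 CPM on the second code and 20.9 ± 2.88 on the first (log2 -2.04, adjusted p = 0.000305). The DNA methyltransferases went both ways: Dnmt3a fell by 0.58 and Dnmt3b rose by 0.43. Dnmt1, the maintenance methyltransferase and the most abundant of the list, stood at 0.02 for TAF10KO against WT (adjusted p = 0.974), and edgeR called 0 of 17 genes in each genotype comparison, with 2, 2 and 0 at an unadjusted p under 0.05 for TAF10KO against WT, TAF10KO against TAF10HET and TAF10HET against WT. DESeq2 called 1, Hells, in the first and in the second of these and 0 in the third.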

How the data were processed

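Per the labels' protocols, total RNA of each liver cell suspension entered a TruSeq version 2 library. The authors deposited raw counts of reads for each Ensembl gene, whole numbers without normalisation. TopHat2 2.0.8 is among the tools in the submitters' processing notes, with DESeq2, and mm10 is the build; which program counted the reads, on which annotation and with which strand setting, is not given in the sources used here. Reads in no gene (6.81% to 10.1%), ambiguous reads (3.98% to 5.94%) and reads aligned to several places (14.1% to 22.2%) stand on summary lines and were left out. GENCODE M21 matched 37607 of 39017 identifiers.

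Genes were tested on all 7 libraries in R 4.3.3 with edgeR 4.0.16 (filterByExpr, TMM factors, robust dispersions, quasi-likelihood F test, two-sided, threshold 0.05, Benjamini-Hochberg adjustment over 15800 genes), with genotype and date code as terms and 3 residual degrees of freedom per gene. The date code acts as a replicate block. Deviations from group means correlated across genes at 0.40 to 0.74 between libraries of the same code and different groups (8 pairs) and at -0.74 to -0.40 between codes (8 pairs); in groups of 2 the deviations mirror each other. Within the groups no library was a copy of another, and pairs from different groups were not checked for this. Livers are separate samples, but whether p-values cover spread between litters is not known. On simulated counts for TAF10KO against WT (15525 genes), the fit called 31.3% of genes changed by a factor of 2 and 94.9% of those changed by a factor of 4. The simulated counts had the same dispersion for every gene and no date difference, unlike the real ones. These rates are therefore not those of the members. The members and lists were chosen with earlier results of these data known. All members were named; from each list, up to 6 called genes with the smallest p per comparison or else the most abundant one. Genes outside the lists and cluster neighbours were named by likeness or position; a few examples were chosen after their values were seen. The SE is the log2 difference divided by the square root of F; log2 CPM used a prior count of 2. Alternatives were median-of-ratios factors, DESeq2 1.42.0, no filter, no date term, haemoglobin genes left out, embryo sex as a term and each library left out.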

Additional observations from a re-analysis of the deposited data

Results flagged for a closer look

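Within the 4 livers of the second date code, 1 liver stood far from the others in 2 of the 10 genes. The gap between TAF10KO replicate 2 and the next liver was 0.976 of the whole range for Plagl1 and 0.885 for Mest, above Dixon's critical value for 4 samples. Chance alone marks about 1 such gene in 20, and the 4 livers are of 3 genotypes. The share of all genes marked in this way was not computed, so these 2 members are not shown to differ from other genes in this. This liver is male, unlike the other 3 of its date code, and had the highest summed mesenchymal markers of them; the part of either in these values was not tested.

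The date difference of Plagl1 was smaller in TAF10KO livers than in the others by 1.03 on the log2 scale (1.029, SE 0.14, adjusted p = 0.028 by edgeR), a test of the difference itself chosen after the data were seen. It rests on 1 TAF10KO liver per date code. It missed the threshold with embryo sex as a term (0.55), a term set here by TAF10HET replicate 1 alone, the only male outside TAF10KO. It also missed the threshold without TAF10HET replicate 2 (adjusted p = 0.0559) and without TAF10HET replicate 3 (adjusted p = 0.175).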

How the results depend on the processing

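The fall of the members between the date codes kept its direction and its side of the threshold for 10 of 10 members under all 13 alternatives, with log2 differences between -2.77 and -0.41 and a highest adjusted p of 0.0317. None of the alternatives covers spread between sets of livers with different codes. The number of all genes called there was 3206 to 7303 with 1 library left out; it was lowest without WT replicate 1 or WT replicate 2.

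The genotype comparisons depended on the setting. For TAF10KO against WT, where 96 genes were called, the number was 1399 with no filter, 2725 with embryo sex as a term, 589 with DESeq2, 0 with no replicate block (no date term) and 0 to 1282 with 1 library left out. Members called were 2 with no filter (Mest and Plagl1), 2 with embryo sex (Mest and Cdkn1c), 1 with DESeq2 and 0 to 2 with 1 library left out. For TAF10KO against TAF10HET, where 254 genes were called, it was 1498 with no filter, 2743 with embryo sex, 690 with DESeq2, 0 with no replicate block and 16 to 1203 with 1 library left out; members called were 2 with no filter (Mest and Plagl1), 2 with embryo sex (Mest and Cdkn1c) and 0 to 2 with 1 library left out. For TAF10HET against WT, where 1 gene was called, it was 289 with no filter, 32 with embryo sex, 9 with DESeq2, 0 with no replicate block, 0 with haemoglobin genes left out and 0 to 13 with 1 library left out. The causes were not tested.

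Small genotype differences changed sign. For TAF10KO against WT, Igf2r was 0.000657 with embryo sex and Meg3 0.00874 with no filter; with 1 library left out, the ranges were -0.29 to 0.029 for Igf2, -0.30 to 0.17 for Igf2r, -0.028 to 0.197 for Grb10, -0.18 to 0.31 for Dlk1, -0.14 to 0.063 for Meg3, -0.31 to 0.17 for Cdkn1c, -0.091 to 0.43 for Peg3 and -0.22 to 0.85 for Plagl1. For TAF10KO against TAF10HET the range of Cdkn1c was -0.47 to 0.0196. Mest in TAF10HET against WT was -0.021 with no replicate block and -0.0086 to 0.23 with 1 library left out.

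TAF10KO and WT had 2 livers each and the fit 3 residual degrees of freedom, so genotype differences well above their SE could go uncalled. That of Mest between TAF10KO and WT was 0.53 with an SE of 0.144 and was not called (adjusted p = 0.138 by edgeR). A member without a call is thus not shown to be unchanged. Each member had at least 1328 counts in every library.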
